A study of Homo sapiens with 6 samples.

Results

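Metallothioneins are small, cysteine-rich proteins that bind zinc and copper, and with them MTF1, the zinc-sensing transcription factor of metallothionein genes, and SLC30A1, an exporter of zinc at the plasma membrane, were followed in cells given an inhibitor of PRMT5. The 10 genes examined were the rows of the deposited expression table named MT2A, MT1E, MT1X, MT1F, MT1G, MT1M, MT1A, MT4, MTF1 and SLC30A1, out of 58735 genes in all. All 10 were found, and 6 of them reached 1 FPKM (fragments per kilobase of listed gene length, scaled by 1 factor per library) in at least 3 of the 6 libraries, the filter for testing that 13578 genes passed. The other 4, MT1F, MT1G, MT1M and MT1A, had 0 reads in every library. The genes were picked with the difference between inhibitor and control already known, so their values in that comparison are a description and carry no test.

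The 6 RNA-seq libraries are labelled BxPC-3, an established human pancreatic adenocarcinoma cell line. In 3 of them (called PRMT5i here, replicates 1 to 3) the cells had received GSK3326595, which inhibits PRMT5, an arginine methyltransferase that makes symmetric dimethylarginine, and in the other 3 (DMSO, replicates 1 to 3) they had received DMSO. All were grown in RPMI medium with fetal bovine serum (the labels state neither the inhibitor's dose nor the length of treatment). The design text of the series names a knockdown, whereas the label of every library names the inhibitor, and the labels were followed. They do not say whether replicates were separate cultures, and a p-value here therefore reflects the spread among these libraries alone, which may be technical.

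When free zinc in a cell rises, MTF1 binds short DNA elements called metal response elements and switches on metallothionein genes and SLC30A1. The metallothioneins then hold zinc, and SLC30A1 carries it out. Metallothionein genes also answer to cadmium, glucocorticoids and oxidants, and MT2A is the most widely expressed of the human genes, while MT4 is known from stratified epithelia.

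The promoters of the members that had reads are shown first, because MTF1 acts there. Of the 10 members, 5 had an entry in the RefSeq promoter table (GRCh38.p14): MT2A, MT1X, MT4, MTF1 and SLC30A1. The sequences below are the 250 bases before the RefSeq start, 5′ to 3′ on the gene's strand. RefSeq starts differ from the gene bounds of the expression table, which are given with each gene further on: the MT2A window lies inside the listed gene, those of MT1X, MT4 and MTF1 overlap its first bases, and that of SLC30A1 lies upstream of it. Capitals mark each match, on either strand, to the metal response element core, TGCACNC or TGCGCNC; no match overlapped another. They lie at chr16:56608334-56608583 (MT2A, plus strand), chr16:56682220-56682469 (MT1X, plus strand), chr16:56564823-56565072 (MT4, plus strand) and chr1:211579162-211579411 (SLC30A1, minus strand).
MT2A: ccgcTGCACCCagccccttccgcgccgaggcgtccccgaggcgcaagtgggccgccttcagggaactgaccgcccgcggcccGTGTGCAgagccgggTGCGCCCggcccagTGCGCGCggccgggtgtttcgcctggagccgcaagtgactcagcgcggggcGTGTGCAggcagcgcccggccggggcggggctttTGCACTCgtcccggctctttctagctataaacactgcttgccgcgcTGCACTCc
MT1X: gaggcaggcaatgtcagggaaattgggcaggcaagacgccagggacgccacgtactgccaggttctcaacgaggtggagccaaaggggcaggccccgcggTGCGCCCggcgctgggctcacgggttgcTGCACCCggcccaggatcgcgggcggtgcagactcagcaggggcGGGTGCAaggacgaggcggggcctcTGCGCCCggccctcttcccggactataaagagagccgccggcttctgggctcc
MT4: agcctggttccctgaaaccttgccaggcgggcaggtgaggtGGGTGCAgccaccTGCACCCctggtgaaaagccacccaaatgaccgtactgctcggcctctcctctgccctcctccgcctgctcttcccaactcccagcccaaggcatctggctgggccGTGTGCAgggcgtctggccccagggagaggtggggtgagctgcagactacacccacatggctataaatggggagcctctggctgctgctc
SLC30A1: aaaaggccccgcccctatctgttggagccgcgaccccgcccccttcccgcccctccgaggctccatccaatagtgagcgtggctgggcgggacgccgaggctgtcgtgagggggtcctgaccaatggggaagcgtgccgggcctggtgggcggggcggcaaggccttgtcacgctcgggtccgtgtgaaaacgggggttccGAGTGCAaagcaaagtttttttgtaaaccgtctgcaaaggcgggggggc

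The MT2A promoter held 7 matches, between 246 and 2 bases before the start, and at least as many were found in 0.0313% of the 35116 promoters of the same length. MT1X held 4, a number reached by 0.370% of promoters, and MT4 held 3, reached by 1.58%. SLC30A1 held 1, as did 24.8% of all promoters or more, and MTF1 (chr1:37859593-37859842, minus strand, not shown) held none. A match describes letters in this window and is not a measured binding site.

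The paralogues share sequence, and the coding sequences below show how much. They are those of MT2A, MT1E and MT4 without the stop codon, with the whole of the processed pseudogene MT2P1 on chromosome 4, from GENCODE 29 (hg38). Capitals mark bases that differ from MT2A in a pairwise alignment.
MT2A: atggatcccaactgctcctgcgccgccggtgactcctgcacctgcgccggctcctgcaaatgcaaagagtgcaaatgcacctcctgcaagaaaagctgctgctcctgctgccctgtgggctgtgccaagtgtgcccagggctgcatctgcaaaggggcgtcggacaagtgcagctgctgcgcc
MT2P1: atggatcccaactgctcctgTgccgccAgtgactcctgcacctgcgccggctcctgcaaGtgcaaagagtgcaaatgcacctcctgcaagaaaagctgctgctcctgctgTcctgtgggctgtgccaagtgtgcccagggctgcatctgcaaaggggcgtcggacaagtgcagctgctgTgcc
MT1E: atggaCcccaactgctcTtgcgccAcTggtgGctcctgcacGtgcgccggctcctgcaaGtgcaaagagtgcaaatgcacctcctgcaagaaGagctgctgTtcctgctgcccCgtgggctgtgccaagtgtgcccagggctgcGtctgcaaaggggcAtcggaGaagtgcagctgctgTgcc
MT4: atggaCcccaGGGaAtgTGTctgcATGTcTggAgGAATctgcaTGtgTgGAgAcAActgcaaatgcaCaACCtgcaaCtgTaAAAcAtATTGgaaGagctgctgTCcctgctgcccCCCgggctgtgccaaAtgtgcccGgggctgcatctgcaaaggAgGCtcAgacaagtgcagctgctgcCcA

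MT2P1 differed from MT2A at 5 of 183 positions (97.3% identity), MT1E at 14 (92.3%), and MT4 at 54 of 186 aligned columns. With all annotated transcripts of a gene pooled, the genes are more distinct. For MT2A and MT1X that pool takes in introns, as their listed lengths, 1299 and 1773 bases, cover the whole gene. Of the runs of 31 bases in MT2A transcripts, 92.8% occurred in no other annotated gene, and the shares were 84.4% for MT1E, 80.2% for MT1X and 100% for MT4. MT1E shared 2 such runs with MT2A. MT1X shared 54 (2.95% of its runs) with MT2A and 292 with genes outside the family. MT4 shared none with any gene, and MT2P1 shared 38.6% of its runs with MT2A. The spliced RNAs alone were not compared, and they may share more than these values show. The sources used here do not say how the authors assigned reads that match several genes. The division among MT2A, MT2P1 and the MT1 genes is therefore uncertain.

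Whole reads could be recovered from the FPKM values (100% of values within 0.01 reads), 14087260 to 15724750 per library. PRMT5i replicate 2 stood apart. Its log2 values correlated with the other PRMT5i libraries at r = 0.904 and 0.906 across genes, against 0.980 between those and 0.980 to 0.983 within DMSO. The share of mitochondrial reads was 11.3% in it, against 5.84% and 6.03% in the other PRMT5i libraries and 4.70% to 5.01% in DMSO, and coding genes listed under 1500 bases took 1.09%, against 2.27% to 2.61% elsewhere. Metallothionein genes are short, so their values are also given without this library. PRMT5 itself stood at 13.4, 12.8 and 12.1 FPKM in PRMT5i and 23.2, 24.6 and 26.2 FPKM in DMSO. Of 13 markers of ductal pancreatic cancer cells, PDX1, ESRP1, KRT19 and the CEACAM genes 5 and 6 were without a read in any library, and EPCAM and CDH1 failed the filter. EPCAM averaged 0.316 FPKM in PRMT5i and 0.211 FPKM in DMSO, and CDH1 averaged 0.446 FPKM in PRMT5i and 0.118 FPKM in DMSO. The other 6, KRT7, KRT8, KRT18, MUC1, CLDN4 and SOX9, passed. The markers thus match the pancreatic ductal label only in part, the identity of the cell line was not tested, and every value is that of libraries labelled BxPC-3. Of 14 markers of acinar, islet, fibroblast, endothelial and immune cells 7 were at 0, and their summed level was 6.40 to 10.6 FPKM in PRMT5i and 5.54 to 5.97 FPKM in DMSO. The collagen gene COL1A1 made up most of that sum, at 8.80, 5.39 and 10.4 FPKM in PRMT5i and 4.49, 4.23 and 4.27 FPKM in DMSO. The endothelial cadherin CDH5 ran the other way, at 0.231, 0.614 and 0.171 FPKM in PRMT5i and 1.28, 1.06 and 1.39 FPKM in DMSO.

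Metallothionein RNA as a whole was lower with the inhibitor. Summed over the 8 metallothionein members, the level was 110, 40.3 and 97.7 FPKM in PRMT5i replicates 1 to 3, against 793, 728 and 921 FPKM in DMSO replicates 1 to 3. The groups did not overlap, and PRMT5i replicate 2 was the lowest library. The means were 82.5 ± 37.1 FPKM in PRMT5i and 814 ± 98.4 FPKM in DMSO (SD, n = 3 each), a log2 ratio of −3.30, or −2.97 without PRMT5i replicate 2. As a share of recovered reads the members took 147, 48.6 and 129 CPM in PRMT5i and 1034, 957 and 1172 CPM in DMSO. Adding the 13 other metallothionein genes and pseudogenes of the table left the log2 ratio at −3.30. In bulk RNA, fewer cells of a type and less RNA per cell cannot be told apart.

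**Figure D1:**
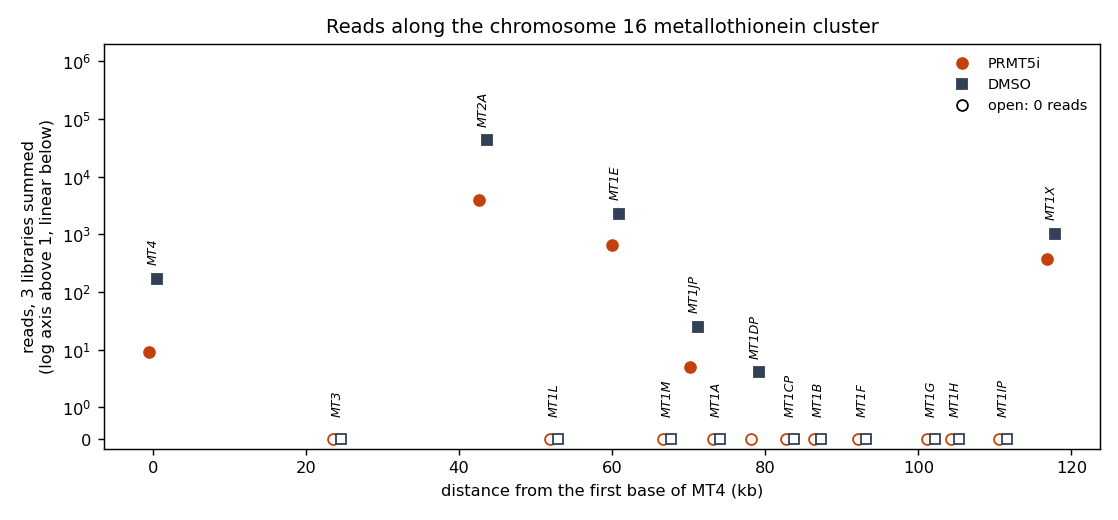
Reads of each metallothionein gene and pseudogene on chromosome 16, summed over 3 libraries per group (vertical axis, log above 1), against distance from the first base of MT4 in kilobases. Filled circles are PRMT5i and filled squares DMSO; open symbols mark 0 reads. MT2A, MT1E, MT1X and MT4 carried nearly all reads, each lower in PRMT5i, and 10 of the 16 genes had none.

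MT2A (ENSG00000125148, chromosome 16, 56608199 to 56609497, plus strand, hg38) was the most abundant member. It stood at 87.0, 27.1 and 78.6 FPKM in PRMT5i and at 720, 657 and 843 FPKM in DMSO. Among 19938 nuclear protein-coding genes it ranked 327th, 1316th and 378th from the top in the PRMT5i libraries and 14th to 16th in the DMSO libraries. All PRMT5i libraries were far below all DMSO libraries, and replicate 2 was the lowest. The group means were 64.2 ± 32.4 FPKM in PRMT5i and 740.3 ± 94.5 FPKM in DMSO (SD, n = 3 each). The log2 fold change on log2(FPKM + 1), the scale used for all fold changes here, was −3.66 (SE 0.43), and −3.14 (SE 0.11) without PRMT5i replicate 2. The counts behind these values were 1852, 472 and 1665 reads in PRMT5i and 14634, 12507 and 16218 reads in DMSO.

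MT1E (ENSG00000169715, chromosome 16, 56625475 to 56627112, plus strand) lies next among the expressed genes of the cluster and encodes an isoform that binds zinc in the same way. It stood at 15.9, 9.30 and 14.2 FPKM in PRMT5i, against 45.6, 44.7 and 53.1 FPKM in DMSO. Again the groups were separate and replicate 2 was lowest. The log2 fold change was −1.82 (SE 0.20), or −1.60 (SE 0.10) without PRMT5i replicate 2.

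MT1X (ENSG00000187193, chromosome 16, 56682424 to 56684196, plus strand) is the last gene of the cluster. It stood at 6.30, 3.33 and 3.87 FPKM in PRMT5i and at 13.8, 13.1 and 11.7 FPKM in DMSO. The groups did not overlap, and here the lowest PRMT5i libraries, replicates 2 and 3, were close together. Its log2 fold change was −1.37 (SE 0.21), or −1.21 (SE 0.18) without PRMT5i replicate 2. An overlapping transcript on the same strand, AC026461.1, had 0 reads throughout.

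MT4 (ENSG00000102891, chromosome 16, 56565049 to 56568957, plus strand) stood at 0.415, 0.508 and 1.04 FPKM in PRMT5i and at 13.05, 12.3 and 12.9 FPKM in DMSO. It passed the filter through its DMSO values. Its listed length is 294 bases, against 1773 for MT1X, so that like FPKM in DMSO came from 60, 53 and 56 reads for MT4 and 382, 339 and 307 reads for MT1X; in PRMT5i MT4 had 2, 2 and 5 reads. Over each group that is 9 reads in PRMT5i and 169 reads in DMSO. The ratio of DMSO to PRMT5i in CPM was 19.3, a description that rests on those 9 PRMT5i reads. The log2 fold change was −3.07 (SE 0.16) with a pseudocount of 1, but −4.18 with a pseudocount of 0.1 and −4.15 from recovered reads, because the pseudocount weighs on low values. The groups did not overlap, and PRMT5i replicate 1, not replicate 2, was the lowest. Without PRMT5i replicate 2 its log2 fold change was −3.01.

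**Figure D2:**
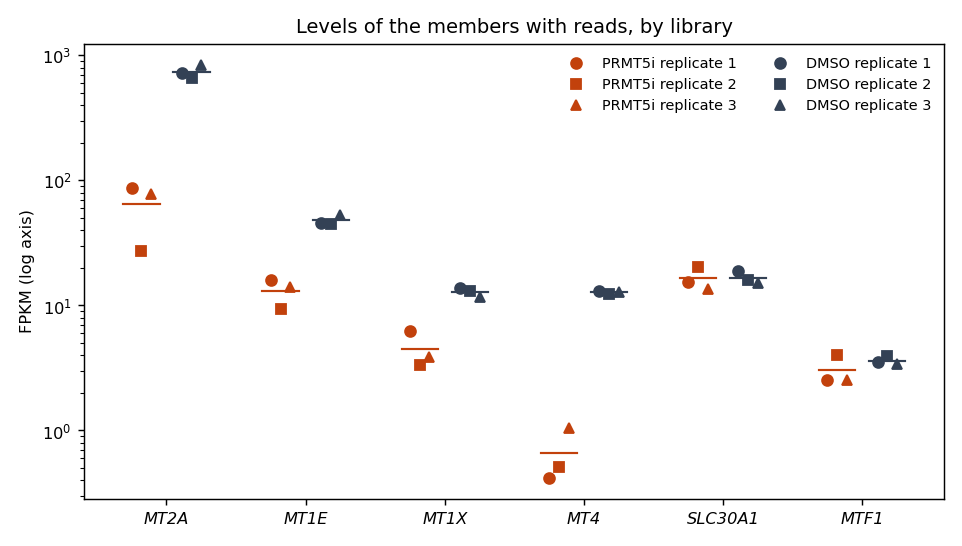
FPKM (log axis) of the 6 members with reads in each library; PRMT5i to the left and DMSO to the right of each gene, one symbol per replicate, with a bar at the group mean. The 4 metallothioneins are separate between groups, whereas SLC30A1 and MTF1 overlap.

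The remaining metallothionein members had no reads in either group. MT1M, MT1A, MT1F and MT1G (chromosome 16, between 56632233 and 56668065) lie between MT1E and MT1X and had 0 reads among the 89881373 of all libraries. A count of 0 allows 3 reads over the 6 libraries, which is 0.0175 FPKM for MT1F, 0.0351 for MT1M, 0.0441 for MT1G and 0.0835 for MT1A. Of their runs of 31 bases, pooled over annotated transcripts, 96.8% (MT1F), 75.9% (MT1M), 76.7% (MT1G) and 81.1% (MT1A) occurred in no other annotated gene. No fold change can be given for them. Of all nuclear protein-coding genes 20.0% had 0 reads throughout, several of the ductal markers among them, so a 0 here describes these libraries and not the cell line in general.

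Outside the members, 13 further metallothionein genes and pseudogenes are in the table, and 8 of them, MT3, MT1B, MT1H, MT1HL1, MT1L, MT1CP, MT1IP and MT1P3, had 0 reads. MT2P1 was the only one that passed the filter, at 2.0002, 0 and 1.34 FPKM in PRMT5i and 18.5, 23.9 and 11.8 FPKM in DMSO. It passed through its DMSO values, and no test is given for it. It had 6, 0 and 4 reads in PRMT5i and 53, 64 and 32 reads in DMSO. Its reads ran at 3.24, 0 and 2.40 per 1000 MT2A reads in PRMT5i and at 3.62, 5.12 and 1.97 in DMSO, and whether they come from the pseudogene or from MT2A was not tested. MT1JP had 5 reads over the PRMT5i libraries and 25 over the DMSO libraries, MT1XP1 had 4 and 9, MT1P1 had 3 and 4, and MT1DP had 0 and 4.

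The make-up of the metallothionein signal differed between the groups as well. Shares and ratios between genes rest on listed lengths, which take in introns for MT2A and MT1X, so only their differences between groups are read. MT2A supplied 79.4%, 67.4% and 80.5% of the summed FPKM in PRMT5i and 90.9%, 90.4% and 91.6% in DMSO. The level of MT2A was 5.47, 2.92 and 5.55 times that of MT1E in PRMT5i, against 15.8, 14.7 and 15.9 times in DMSO. MT1E and MT1X together made up 20.2%, 31.4% and 18.5% in PRMT5i and 7.50%, 7.94% and 7.04% in DMSO. So no PRMT5i library overlapped a DMSO library in any of these shares, while the ratio of MT1E to MT1X did overlap, at 2.52, 2.79 and 3.66 in PRMT5i and 3.31, 3.43 and 4.54 in DMSO.

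**Figure D3:**
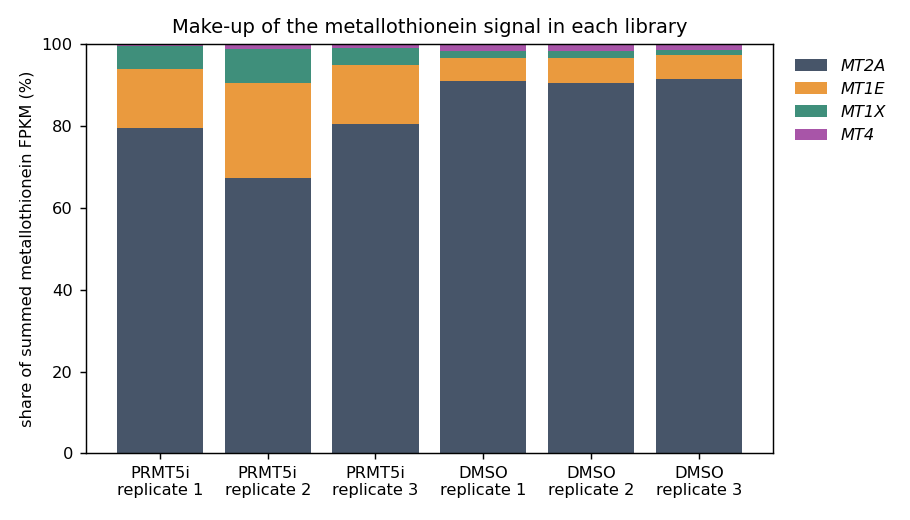
Share of the summed metallothionein FPKM (percent, vertical axis) taken by MT2A, MT1E, MT1X and MT4 in each library, PRMT5i left and DMSO right. MT2A took 67.4% to 80.5% in PRMT5i and 90.4% to 91.6% in DMSO.

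MTF1 (ENSG00000188786, chromosome 1, 37809567 to 37859620, minus strand) had the lowest mean FPKM in DMSO of the 6 members with reads. It stood at 2.52, 4.004 and 2.55 FPKM in PRMT5i and at 3.55, 3.91 and 3.38 FPKM in DMSO. PRMT5i replicate 2 was the highest of all 6 libraries and the other 2 PRMT5i libraries were the lowest, so the groups overlapped. The log2 fold change was −0.21 (SE 0.17), and −0.38 (SE 0.09) without PRMT5i replicate 2. A pseudogene on the opposite strand, AL929472.4, overlaps MTF1 and stood at 0.185 FPKM or less.

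SLC30A1 (ENSG00000170385, chromosome 1, 211571568 to 211578742, minus strand) stood at 15.3, 20.4 and 13.6 FPKM in PRMT5i and at 18.8, 16.01 and 15.0 FPKM in DMSO. Its groups overlapped, with PRMT5i replicate 2 highest and PRMT5i replicate 3 lowest. The means were 16.4 ± 3.53 FPKM in PRMT5i and 16.6 ± 1.97 FPKM in DMSO (SD, n = 3 each). The log2 fold change was −0.03 (SE 0.17), and its sign depended on the setting: it was −0.19 (SE 0.11) without PRMT5i replicate 2 and 0.03 with the trend on gene length removed. In the DMSO libraries the order of mean FPKM was MT2A, MT1E, SLC30A1, MT1X, MT4 and MTF1, with MT1X and MT4 not separate. In PRMT5i it was MT2A, SLC30A1, MT1E, MT1X, MTF1 and MT4, with SLC30A1 and MT1E overlapping and MT1X and MTF1 overlapping. Both orders depend on the listed lengths. Those of MT2A and MT1X (1299 and 1773 bases) take in introns, which lowers their FPKM beside MT4, listed at 294 bases.

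Gene length moved with PRMT5i replicate 2, and the members differ in length. Among other coding genes that passed the filter and are listed at 1000 to 2000 bases, as MT2A, MT1E and MT1X are, the median distance from the DMSO mean on log2(FPKM + 1) was −0.10, −0.75 and −0.12 in PRMT5i replicates 1 to 3. For genes of 4000 bases or more, as MTF1 and SLC30A1 are, it was −0.04, 0.10 and −0.06. The distances of MT2A were −3.07, −4.71 and −3.21, those of MT1E −1.53, −2.24 and −1.68, and those of MT1X −0.92, −1.67 and −1.50. MT4, at −3.28, −3.19 and −2.75, stands beside genes listed under 1000 bases, whose median was −0.10, −1.09 and −0.12. With each library's length trend removed, the log2 fold changes were −3.52 for MT2A, −1.69 for MT1E, −1.19 for MT1X and −3.01 for MT4. Both comparisons use listed lengths, which take in introns for MT2A and MT1X. Their spliced RNAs may belong with shorter genes, so the match on length is rough.

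**Figure D4:**
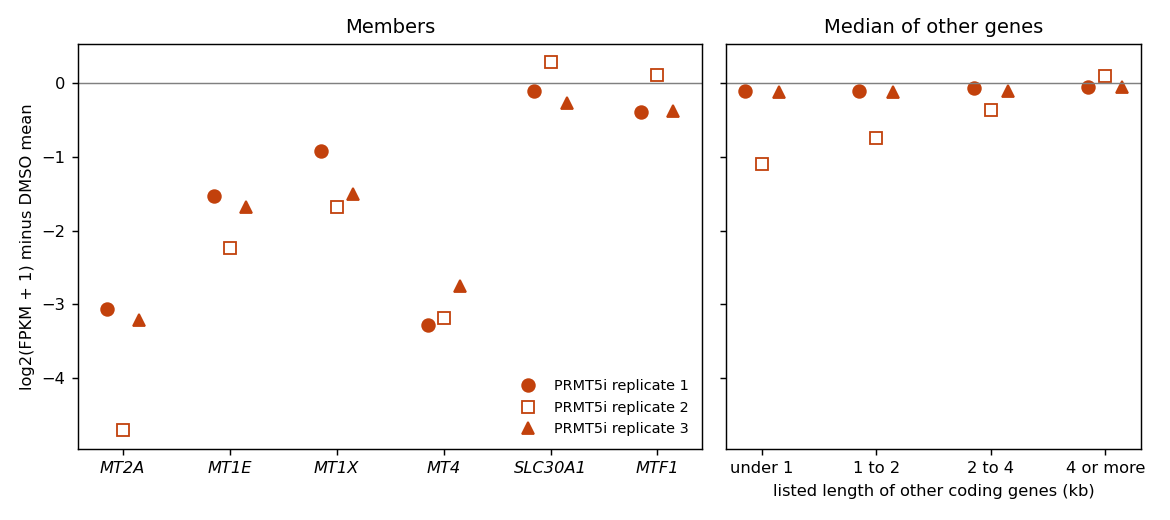
Distance of each PRMT5i library from the DMSO mean on the log2(FPKM + 1) scale (vertical axis), for the 6 members (left) and as the median of other coding genes grouped by listed length in kilobases (right). Open squares are PRMT5i replicate 2, whose short genes lay lower; the 4 metallothioneins lay at −0.92 or lower in all 3 libraries.

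Across all 13578 genes tested, 17.2% were called (limma, Benjamini-Hochberg adjusted p under 0.05), 10.0% lower and 7.18% higher with the inhibitor. Without PRMT5i replicate 2 it was 40.6% (23.1% lower, 17.5% higher). With the length trend removed it was 20.8% (10.8% lower, 10.0% higher), and with both changes 40.7% (21.5% lower, 19.2% higher). The 6 members that passed the filter were part of these fits, but no call is given for them. All 3 PRMT5i libraries lay below all 3 DMSO libraries for MT2A, MT1E, MT1X and MT4 and for 26.7% of all genes tested. MT4 was admitted by its DMSO values. The opposite order held for 19.2% of genes and none of the members. As the members were chosen from this contrast, nothing is read from these counts.

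The other zinc transporters gave 1 call with all libraries and 7 without PRMT5i replicate 2. Of the 23 genes of the ZnT family (SLC30A, which move zinc out of the cytosol) and the ZIP family (SLC39A, which bring it in), SLC30A1 left out, 14 passed the filter. With all libraries 1 rose and 0 fell, against 17.2% of all genes called, and their median log2 fold change was 0.01, against −0.05 for all genes tested. The gene that rose was SLC30A9, a mitochondrial zinc transporter, at 6.13, 7.68 and 4.93 FPKM in PRMT5i and 3.92, 3.58 and 3.23 FPKM in DMSO. Every PRMT5i library lay above every DMSO library (log2 fold change 0.65, SE 0.16, adjusted p = 0.0420, limma). Leaving out PRMT5i replicate 1 or any one DMSO replicate ended the call (adjusted p up to 0.148).

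Of the importers, 0 of 10 were called by limma, and likewise 0 by limma-voom on recovered reads. An unadjusted limma p under 0.05 was found for 4 of them (1 higher, 3 lower), and for 4697 of all 13578 genes tested, so nothing is read from these 4. SLC39A7, which releases zinc from the endoplasmic reticulum, averaged 52.0 ± 21.4 FPKM in PRMT5i and 85.5 ± 5.19 FPKM in DMSO (SD, n = 3 each; log2 fold change −0.81, adjusted p = 0.142, limma). SLC39A14, a plasma membrane importer of zinc and iron, averaged 49.0 ± 7.63 FPKM in PRMT5i and 54.9 ± 1.16 FPKM in DMSO (−0.17, adjusted p = 0.411). Without PRMT5i replicate 2, 7 of the 14 transporters were called: SLC30A5 (0.23) and SLC30A9 (0.51) higher, and SLC30A7 (−0.41), SLC39A6 (−0.65), SLC39A7 (−0.40), SLC39A13 (−0.42) and SLC39A14 (−0.29) lower. These were named after their values were seen, and their share is to be read against the 40.6% of all genes called in that fit.

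**Figure D5:**
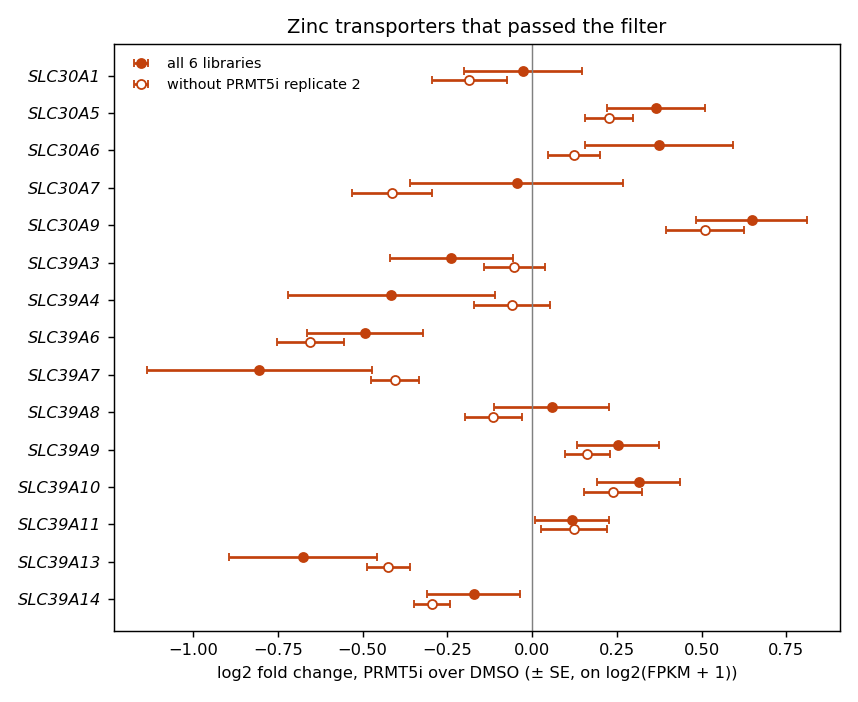
Log2 fold change of PRMT5i over DMSO with its standard error (horizontal axis) for SLC30A1 and the 14 other zinc transporters that passed the filter. Filled points use all 6 libraries and open points leave out PRMT5i replicate 2; SLC30A9 was the only one of the 14 called with all libraries.

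Metallothioneins also hold copper. Of 12 copper handling genes 10 passed the filter and 0 were called by limma or limma-voom (1 at an unadjusted p under 0.05, median log2 fold change −0.13). Among all genes tested, limma called 17.2%, and 4697 of 13578 had an unadjusted p under 0.05. Without PRMT5i replicate 2, ATP7A and CCS were higher and 0 lower, against 40.6% of all genes called. ATP7A, a copper-exporting ATPase named after its values were seen, stood at 3.68, 7.64 and 3.99 FPKM in PRMT5i and 2.58, 2.66 and 2.21 FPKM in DMSO, without overlap. Its log2 fold change was 0.76 (adjusted p = 0.0804, limma), and 0.66 with the length trend removed (adjusted p = 0.0397), where it was the 1 copper gene called. The superoxide dismutase SOD1 averaged 62.8 ± 14.1 FPKM in PRMT5i and 80.8 ± 3.63 FPKM in DMSO (−0.38, adjusted p = 0.191, limma; SD, n = 3 each). The copper importer SLC31A1 averaged 14.9 ± 1.85 FPKM in PRMT5i and 12.0 ± 0.774 FPKM in DMSO (0.29, adjusted p = 0.152).

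Among 9 other factors known to act at metallothionein promoters, 2 fell, 0 rose and 7 were not called, with a median log2 fold change of 0.03. With 17.2% of all genes called, that is near the overall share. USF1, an E-box binding factor, stood at 9.45, 10.2 and 10.7 FPKM in PRMT5i and 16.3, 17.5 and 17.5 FPKM in DMSO (log2 fold change −0.70, SE 0.10, adjusted p = 0.00944, limma). HSF1, the heat shock transcription factor, stood at 18.0, 17.5 and 19.5 FPKM in PRMT5i and 25.8, 25.8 and 29.1 FPKM in DMSO (−0.53, SE 0.11, adjusted p = 0.0241). Both were separate between groups. The call of USF1 was lost without DMSO replicate 1, 2 or 3 (adjusted p up to 0.0628), and that of HSF1 on leaving out any single library other than PRMT5i replicate 2 (up to 0.102). Without PRMT5i replicate 2, 2 of the 9 fell and 1 rose, against 40.6% of all genes called. The 1 that rose was NR3C1, the glucocorticoid receptor (log2 fold change 0.40, adjusted p = 0.0114, limma). With all libraries NR3C1 was not called (0.71, adjusted p = 0.116, limma). It stood at 15.6, 29.3 and 13.9 FPKM in PRMT5i and 11.0, 11.4 and 10.3 FPKM in DMSO.

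Other inducers of metallothioneins have targets of their own. The lists of such targets, like the other gene lists here, were chosen with earlier results of these data known, so nothing is read from their counts. Of 6 glucocorticoid-responsive genes that passed the filter, 3 fell and 0 rose (median log2 fold change −0.29), against 10.0% of all genes lower. The MAPK phosphatase DUSP1 averaged 127 ± 22.0 FPKM in PRMT5i and 388 ± 11.7 FPKM in DMSO (SD, n = 3 each; log2 fold change −1.62, adjusted p = 0.00336, limma). The kinase SGK1 fell by 0.93 on the log2 scale (adjusted p = 0.00490) and the transcription factor KLF9 by 0.59 (adjusted p = 0.0133, but up to 0.0843 without PRMT5i replicate 1 or any one DMSO replicate). The others that passed, TSC22D3, FKBP5 and PER1, were not called, at 0.52, 0.23 and 0.01; without PRMT5i replicate 2, 3 fell and TSC22D3 was higher (0.79).

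Of 10 genes of metal and oxidant stress, 5 were called lower and 0 higher (median log2 fold change −0.74), against 10.0% of all genes lower; without PRMT5i replicate 2 it was 7 lower, against 23.1% of all genes. As this list too was chosen with earlier results known, nothing is read from its counts. Of the 5, HSPA6 passed the filter only through DMSO. HSPA1B (−1.62, adjusted p = 0.00147, limma) and HSPA1A (−1.93, adjusted p = 0.00493), near-identical copies of the inducible HSP70 chaperone whose separate values are therefore uncertain, and the co-chaperone DNAJB1 (−1.26, adjusted p = 0.00290) were called whichever single library was left out. HSPA6, another inducible HSP70, had 0.232, 0 and 0.155 FPKM in PRMT5i and 1.29, 1.498 and 1.196 FPKM in DMSO. Since the DMSO values admitted it, no p is given; its log2 fold change was −1.05, and −3.86 from recovered reads. Thioredoxin reductase TXNRD1 fell by 0.44 (adjusted p = 0.0370), a call that was lost on leaving out any single library other than PRMT5i replicate 2 (up to 0.172). HMOX1, GCLC, GCLM, SRXN1 and SLC7A11 were not called, at −0.54, −0.19, −0.18, −0.58 and −0.90. Without PRMT5i replicate 2, SLC7A11 (−1.21, adjusted p = 0.000405, limma) and HMOX1 (−0.30, adjusted p = 0.0208) joined the 5 called lower. With the length trend removed SLC7A11 was called as well (−0.97, adjusted p = 0.0210, limma). GCLC, GCLM and SRXN1 were called in neither fit. SLC7A11 stood at 4.35, 9.09 and 4.15 FPKM in PRMT5i and 11.1, 12.0 and 10.5 FPKM in DMSO.

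The genes whose pattern over the 6 libraries was most like that of MT2A, by Pearson's r on log2(FPKM + 1) among 13572 other genes, were the endoplasmic reticulum chaperone HSPA5 (r = 0.9996), the protease CTSL (0.9996), the cytokine LIF (0.9995), the transcription factor MAFF (0.9994) and NGDN (0.9992). HSPA5, for example, stood at 258, 202 and 249.6 FPKM in PRMT5i and 382, 379.6 and 398 FPKM in DMSO. Like MT2A, all 5 were lowest in PRMT5i replicate 2, and 157 genes reached r = 0.99 or more. For SLC30A1 the closest were ATG14 (0.9960), NCOA1 (0.9888), MAPK1IP1L (0.9887), RYBP (0.9884) and AC000123.2 (0.9867), with 1 gene at 0.99 or more; all were highest in PRMT5i replicate 2. These values rest on 6 libraries in 2 groups and describe shape only.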

How the data were processed

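Per the labels' protocols, libraries were built from total RNA with a kit that keeps strand. Per the submitters' processing notes the build is hg38. The aligner, counter, annotation, strand setting and handling of multi-mapping reads are not given in sources used here. Values come from 1 file: the authors deposited 1 table of FPKM values with a listed length per gene, 1 column per library, and columns were assigned by title. All 58735 genes have the same coordinates in GENCODE 29.

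Whole reads were recovered as FPKM times length in kilobases divided by 1 factor per library, within 0.01 reads. That factor did not follow the total of recovered reads alone. It was 0.0747 for PRMT5i replicate 2 (14087260 reads) and 0.0683 for DMSO replicate 2 (14201282 reads). How the authors set it is not given in sources used here. The 13578 genes reaching 1 FPKM in at least 3 libraries were fitted as log2(FPKM + 1) with limma 3.58.1 in R 4.3.3 (trend, two-sided, no block) and adjusted by Benjamini-Hochberg over all of them, threshold 0.05. The fit was also run on simulated counts that had the same spread for every gene, no library set apart and no trend on gene length. That run therefore does not show how the fit handles PRMT5i replicate 2. No pair of replicates agreed within sampling noise (chi-square per degree of freedom 2.48 or more). Python 3.11.15, pandas 2.3.3 and biopython 1.88 handled tables and alignments.

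The members and lists were chosen with earlier results of these data known. The genes named are the members, other metallothionein genes, up to 6 called genes per list (or the 2 with the highest mean FPKM), and the 5 genes most like MT2A and SLC30A1; other names were chosen after their values were seen. Alternatives were other pseudocounts, filters and scalings, limma without trend, limma with a robust prior, the replicate block, removal of a loess length trend (span 0.3), limma-voom on recovered reads, and leaving out each library; removing the length trend together with PRMT5i replicate 2 was added after seeing the data.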

Additional observations from a re-analysis of the deposited data

How the results depend on the processing

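The summed metallothionein log2 ratio of −3.30 stayed between −3.56 and −2.97 in every setting run, among them TPM (−3.31), CPM of recovered reads (−3.29) and the length trend removed (−3.22). MT2A, MT1E, MT1X and MT4 were lower with the inhibitor in all 18 alternative fits, at −3.96 to −3.14, −1.96 to −1.60, −1.59 to −1.19 and −4.18 to −2.95. MTF1 was below 0 in its 17 fits (−0.38 to −0.13), and SLC30A1 kept its sign in 13 of 18 (−0.19 to 0.13). The count of genes called, 2339, was 1533 with no filter, 1505 with the filter at 5 FPKM, 1478 with the replicate block, and 478 to 5513 when 1 library was left out (478, 510 and 579 without DMSO replicates 1, 2 and 3, 5513 without PRMT5i replicate 2); with the length trend removed and without PRMT5i replicate 2 it was 5528. The count of zinc transporters called, 1, was 0 with no filter, 0 with the filter at 5 FPKM, 0 with quantile normalization, 0 with the replicate block, 0 to 7 when 1 library was left out and 8 with the length trend removed and without PRMT5i replicate 2. The filter at 5 FPKM left SLC30A9, the 1 transporter called with all libraries, out of the fit, so the 0 there is not a lost call. The cause of the other differences was not tested. The labels do not say whether equal replicate numbers share a culture or a batch. Deviations of same-numbered libraries correlated at −0.02, 0.16 and 0.25. PRMT5i replicates 2 and 3 correlated best with the same number, and PRMT5i replicate 1 with another (0.09 with DMSO replicate 3). Whether the libraries are paired cannot be told from these values. SLC30A9 and TXNRD1 also lost their calls with the replicate block (adjusted p = 0.0589 and 0.0787, limma). With 3 libraries a group, and with 0 to 6 reads per PRMT5i library, small differences in MT4, MT2P1 and the pseudogenes were not detectable at this depth.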
